A study of Mus musculus with 2 samples.

Results

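Processed pseudogenes are copies of messenger RNAs that were reverse transcribed and inserted elsewhere in the genome. They lack the introns of the gene they came from, called the parent gene here, and most sit far from it. In mouse, the housekeeping genes for ribosomal proteins and for the glycolytic enzyme Gapdh left especially many such copies. Setdb1 is a histone methyltransferase that places trimethylation on lysine 9 of histone H3, a mark of silent chromatin, and it acts with cofactors such as Trim28 and the HUSH complex on retroelements and other intronless insertions. A read from the parent's RNA can also match its pseudogene, so the reads at a pseudogene locus may come from either one.

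The loci described here were rows of the deposited expression table typed as processed or transcribed processed pseudogene that had at least 20 reads over both libraries together. That rule kept 604 loci of the 9773 processed pseudogene rows, in a table of 54680 rows, and 561 of the 604 were typed processed and 43 transcribed processed. The rule used only the summed reads, so the level of a locus is a description of how it was chosen, and a locus that is high in 1 library could pass through that library alone. At the edge of the rule, 12 loci had exactly 20 reads, with log2 ratios of knockdown over control from a lower quartile of -0.79 to an upper quartile of 1.95. The 10 loci just outside it, with 19 reads, had quartiles of -0.20 and 0.33.

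RNA came from CT26, a mouse colon carcinoma line of BALB/c origin, in 2 groups of 1 library each. The knockdown cells had been infected with lentivirus for a short hairpin RNA against Setdb1, and the control cells, labelled wild type, with virus holding the empty knockdown vector. Both were grown for 6 days in RPMI medium with serum, and the labels call the knockdown cells differentiated. Whether each library came from a pool of infected cells or from 1 clone is not given in the sources used here, and the empty vector holds no hairpin.

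With 1 library per condition there was no test between conditions and no p-value, and each difference below compares 2 libraries. The libraries held 18421604 reads (control) and 19045830 reads (knockdown). Setdb1 had 1340 reads in the control and 317 in the knockdown library, a read ratio of 0.229 (95% counting interval 0.202 to 0.259). Of the other genes of the silencing machinery, Atf7ip (read ratio 1.29), Trim28 (1.04), Pphln1 (0.652), Morc2a (0.661) and Mphosph8 (0.967) lay within 2-fold. Fam208a, the HUSH subunit Tasor, was more than 2-fold lower, with 72 and 30 reads (0.403, counting interval 0.254 to 0.625). Among 7 epithelial markers, Epcam and Cdh1 had 0 reads in both libraries and Krt8 had 7 and 8, so these 3 stood at or near 0. Vil1 had 1 and 7 reads and Cdx2 5 and 18, while Krt18 had 1016 and 2423 reads and Krt20 183 and 1285. Of the mesenchymal genes, Vim had 66772 and 74193 reads (ratio 1.07), Fn1 83376 and 116804 (1.36) and Col1a1 3951 and 2950 (0.722). Of 4 markers of leukocytes, T cells, endothelium and erythroid cells, Cd3e and Pecam1 had 0 reads, Ptprc 0 and 4, and Hba-a1 5 and 17.

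Read ratios throughout are the reads at a locus per library total, knockdown over control, with exact binomial (Clopper-Pearson) intervals that cover counting error only. A locus is called higher or lower when the ratio passes 2-fold. The parent of a locus is the protein-coding row with the same Swiss-Prot entry in the deposited descriptions. Identity is the share of matching bases in the best local alignment of the pseudogene with the parent's transcripts.

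The following stretches show the letters by which reads of a pseudogene and its parent could be told apart. Each is 90 bases of parent coding sequence, 45 on either side of a junction between 2 exons, with the pseudogene stretch aligned to it. Where several junctions qualified, the stretch with most differing bases was taken. The stretches can therefore look more diverged than the whole pairs. They are read 5′ to 3′ from the GENCODE transcripts of build GRCm38, and capitals mark the bases that differ between the 2 members of a pair. The first pair holds the only base that differs over the 1000 aligned bases of Gm13394 and Gapdh. The junction of exons 3 and 4 of Gapdh spans 98 bases of intron that Gm13394 lacks. Gapdh lies at chr6:125163139-125163183 and chr6:125162996-125163040, minus strand, and Gm13394 at chr2:28934244-28934333, minus strand.
Gapdh: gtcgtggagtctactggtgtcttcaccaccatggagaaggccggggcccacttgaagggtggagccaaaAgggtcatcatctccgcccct
Gm13394: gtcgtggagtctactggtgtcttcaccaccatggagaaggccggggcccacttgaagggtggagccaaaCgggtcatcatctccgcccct

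The second pair shows a more diverged Gapdh copy, 3000002C10Rik, which lay on the other side of no change from Gm13394. The stretch spans the junction of Gapdh exons 4 and 5 and holds 8 differing bases. Of the 3977 bases of 3000002C10Rik, 1224 aligned with the Gapdh transcript. Gapdh lies here at chr6:125162843-125162887 and chr6:125162664-125162708, minus strand, and 3000002C10Rik at chr9:109830811-109830900, minus strand.
Gapdh exons 4 and 5: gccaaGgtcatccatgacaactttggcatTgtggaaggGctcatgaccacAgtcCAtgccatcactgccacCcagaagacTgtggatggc
3000002C10Rik: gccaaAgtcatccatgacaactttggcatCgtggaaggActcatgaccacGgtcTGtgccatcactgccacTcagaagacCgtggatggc

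Pgam1-ps2 stands for the loci whose annotated sequence cannot be told from that of their parent. Its 765 bases match the Pgam1 messenger RNA without a mismatch across all 3 junctions it covers, so both members carry the same letters. Pgam1 lies at chr19:41915835-41915879 and chr19:41916643-41916687, plus strand, and Pgam1-ps2 at chr7:27470077-27470166, minus strand.
Pgam1 and Pgam1-ps2: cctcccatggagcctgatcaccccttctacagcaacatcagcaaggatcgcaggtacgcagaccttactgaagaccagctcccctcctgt

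Gm7901 is the copy of Phgdh with most reads and had 18 mismatches over 1595 aligned bases. Phgdh lies at chr3:98314168-98314212 and chr3:98313413-98313457, minus strand, across exons 11 and 12, and Gm7901 at chr8:75711703-75711792, minus strand.
Phgdh: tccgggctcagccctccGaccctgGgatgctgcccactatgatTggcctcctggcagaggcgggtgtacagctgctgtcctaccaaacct
Gm7901: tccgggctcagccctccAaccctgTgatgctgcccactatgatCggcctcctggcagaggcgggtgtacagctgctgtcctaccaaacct

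The last pairs are the loci that, outside the Gapdh entry, stood furthest below their parents. Gm4342 had 5 mismatches with Rpl35 over 367 bases, and Gm7535 had 58 with Ncaph2 over 1759 bases and was contiguous across all 19 junctions. Rpl35 lies at chr2:39004107-39004151 and chr2:39001721-39001765, minus strand, and Gm4342 at chr8:123854006-123854095, plus strand. Ncaph2 lies at chr15:89364198-89364242 and chr15:89364613-89364657, plus strand, and Gm7535 at chr17:17912116-17912205, minus strand.
Rpl35: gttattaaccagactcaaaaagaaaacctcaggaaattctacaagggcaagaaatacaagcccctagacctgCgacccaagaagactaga
Gm4342: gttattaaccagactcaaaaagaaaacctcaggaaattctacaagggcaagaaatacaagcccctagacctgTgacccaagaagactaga
Ncaph2: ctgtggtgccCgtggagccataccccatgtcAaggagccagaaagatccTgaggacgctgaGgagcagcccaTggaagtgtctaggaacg
Gm7535: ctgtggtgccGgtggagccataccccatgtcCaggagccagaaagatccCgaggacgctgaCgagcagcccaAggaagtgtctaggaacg

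The loci with reads were the copies closest to a coding transcript. Over all 9773 processed pseudogenes, the median identity with the best-matching protein-coding transcript was 87.5% for loci with 0 reads (7628 of 8190 aligned), 96.3% for those with 1 to 19 reads (960 of 979 aligned) and 99.1% for the loci described here (600 of 604 aligned). Identity of 99% or more was found for 1.66% of the aligned loci without reads, 15.2% of those with 1 to 19 reads and 51.8% of those with 20 or more. With 100 reads or more, the share was 64.1%. The count of reads chose the groups and identity did not enter the rule, and parent level, age of the copy and mapping of reads were not separated.

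**Figure D1:**
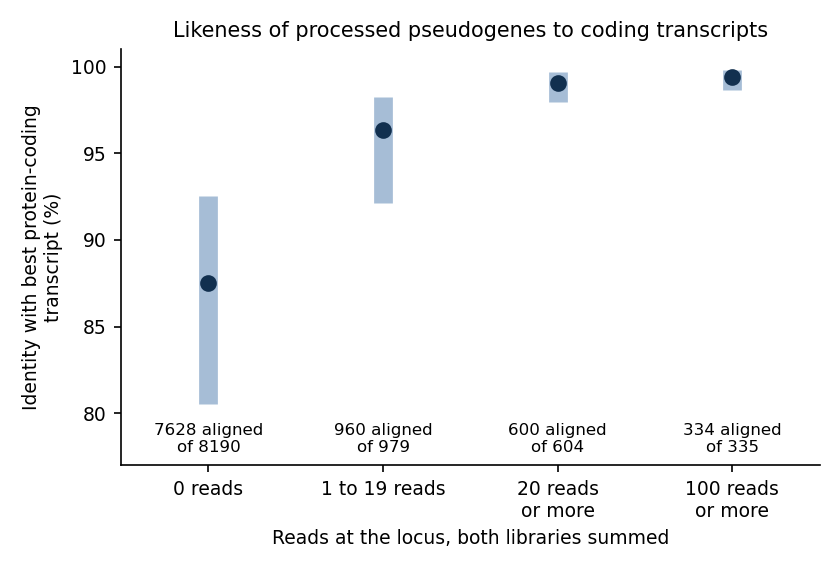
Identity (percent, vertical axis) of processed pseudogenes with their best-matching protein-coding transcript, grouped by reads summed over both libraries (horizontal axis). Points are medians and bars run from the lower to the upper quartile, and the median goes from 87.5% at 0 reads to 99.4% at 100 reads or more.

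Most loci shared stretches with their parent letter for letter. Of the loci, 507 could be compared with their parent in windows of 100 bases. At the median locus, 44.9% of the windows also stood unchanged in a parent transcript. All windows did so at 50 loci and none at 33. The copies lay on 21 chromosomes. Of the 604, 388 lay outside other genes, 180 in an intron of another gene and 36 over an exon of another gene, and 553 were annotated with a single exon.

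Reads were concentrated in a few loci. The 604 loci together had 460203 reads in the control library (2.50% of it) and 471460 in the knockdown library (2.48%), and the remaining 9169 processed pseudogenes had 2353 and 2472. The 10 loci with most reads held 56.8% of the reads at the 604, and the median locus had 121.5 over both libraries. Those 10 were the Gapdh copy Gm13394, the enolase copy Gm4735, the elongation factor copy Gm4366, the cyclophilin copy Gm10123, and 6 copies of ribosomal protein genes, namely Gm8730, Rps2-ps10, Rps2-ps13, Rpl3-ps1, Gm15772 and Gm6472.

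Between the libraries, 70 loci (11.6%) were at least 2-fold higher in the knockdown library, where the background over all 12546 rows with 20 reads or more was 10.7%. On the other side, 59 (9.77%) were at least 2-fold lower, against a background of 10.3%. Among protein-coding rows the shares were 9.94% higher and 9.64% lower, so the loci stood near the background in both directions. The median log2 ratio was -0.12 for the 604 loci and -0.05 for all such rows. Many of these differences rest on few reads: 47 of the 70 higher loci and 43 of the 59 lower ones had fewer than 100 reads. Among the 335 loci with 100 reads or more, 23 were higher and 16 lower, 6.87% and 4.78% against backgrounds of 8.01% and 8.53%. The counting interval lay wholly past 2-fold for 19 higher and 16 lower loci of the 604. Both are smaller shares than the background over all rows, 5.88% and 5.37%. The median row of that background had 863 reads and the median locus 121.5. Past 4-fold there were 13 higher and 14 lower loci, with backgrounds of 3.17% and 2.17%. At 1.5-fold there were 112 and 132, with backgrounds of 19.8% and 22.2%, and with a minimum of 1 read over both libraries and more than 3 in at least 1 of them 166 and 148 of 968 loci, with backgrounds of 13.5% and 12.8%. On the log2 scale of FPKM plus a pseudocount of 1, 27 and 20 loci passed 2-fold (backgrounds 5.24% and 3.65%), and with a pseudocount of 0.1 there were 69 and 52 (10.1% and 7.9%). Of the 14 higher loci that lay in or over another gene with reads, 0 had that gene called higher and 1 called lower, and of 12 such lower loci 4 had it called lower and 2 called higher, counts too small to set against the background.

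**Figure D2:**
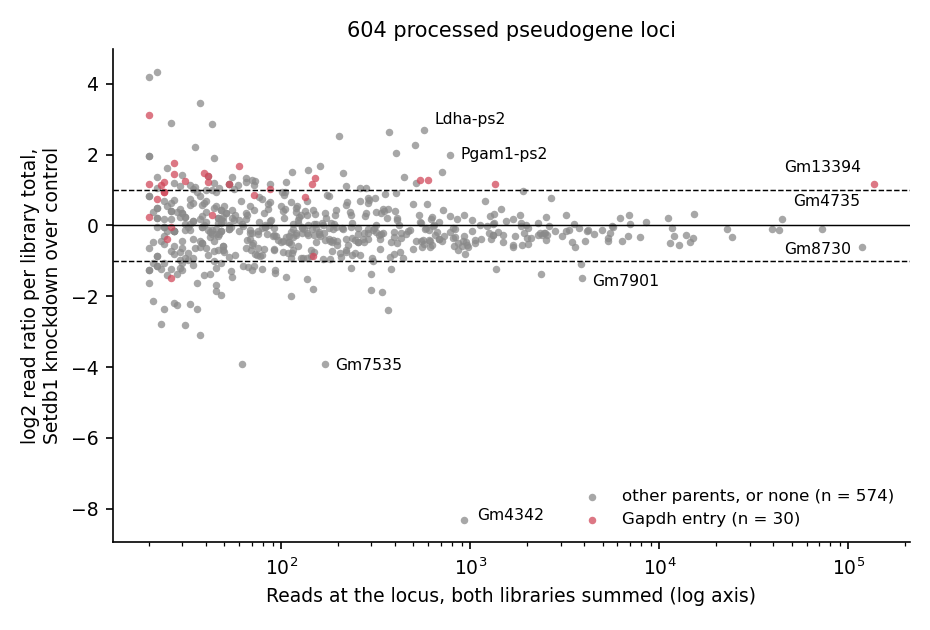
Log2 read ratio of knockdown over control (vertical axis) against reads summed over both libraries (horizontal log axis) for the 604 processed pseudogene loci, with dashed lines at 2-fold and the 30 loci of the Gapdh entry in red. The spread narrows with reads, Gm13394 lies furthest right above the upper line, and Gm4342, with 0 reads in the knockdown library, is drawn at the floor of 3 reads.

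A parent row was found for 510 loci, and 501 of them had a parent with 20 reads or more, from 324 parent genes. In 474 of the 501 this parent was also the coding gene of the best alignment, and in the rest it was not. Several loci share 1 parent and are not independent. Without the 30 loci of the Gapdh entry, described below, 402 of 471 pairs (85.4%) had a ratio within 2-fold of the parent's ratio. Of the 471 pairs, 340 had locus and parent on the same side of no change, and the counting intervals overlapped in 358. For scale, 9907 of all 12546 rows with 20 reads or more lay within 2-fold of no change. The closeness of unlinked rows was not computed, so these counts do not measure how far loci track their parents. Across the 471 pairs Pearson's r between the log2 ratios was 0.52 and Spearman's rho 0.48, a description over loci that share the same 2 libraries, parents and, in part, the same sequence. The median difference, pseudogene minus parent, was 0.06.

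More of the pairs with many reads were within 2-fold. Among the 281 pairs with 100 reads or more, 259 (92.2%) were within 2-fold of the parent, against 75.3% of the 190 pairs with fewer. By identity, the share within 2-fold was 90.9% at 99% identity or more (252 pairs), 81.1% at 97 to 99% (148 pairs) and 74.6% below 97% (67 pairs). The closer copies also had more reads, with medians of 261.5, 104.5 and 50 in the 3 classes. With 100 reads or more in every class, the shares were 95.0%, 87.2% and 86.4%, the last over 22 pairs, while the median absolute difference in log2 ratio was 0.19, 0.21 and 0.17 and did not follow identity.

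**Figure D3:**
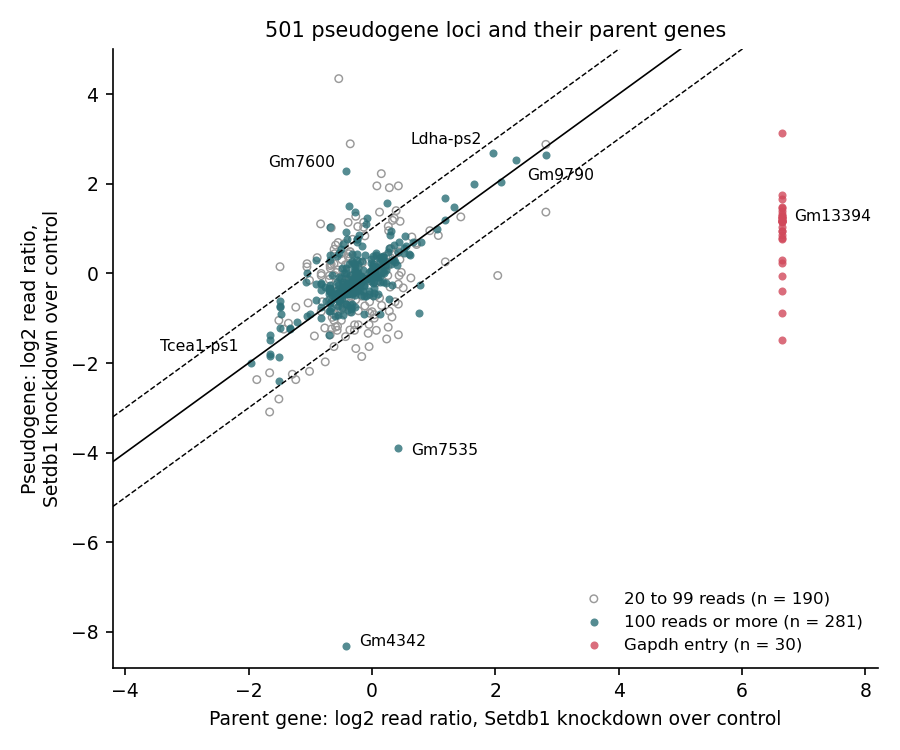
Log2 read ratio of each pseudogene (vertical axis) against that of its parent (horizontal axis), knockdown over control, for 501 pairs, with the line of equality and dashed lines 2-fold from it. Filled points have 100 reads or more, open points fewer, and red points are the 30 loci of the Gapdh entry, which stand to the right because Gapdh itself had a log2 ratio of 6.64.

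Where the parent was past 2-fold, its copies mostly followed. Leaving out Gapdh, 12 parents of 15 loci were at least 2-fold higher, and of those loci 11 passed 2-fold in the same direction and 14 lay above no change. On the lower side, 21 parents had 35 loci, of which 21 were at least 2-fold lower, 31 below no change and 0 at least 2-fold higher. The shares over all rows with 20 reads or more were 10.7% higher and 10.3% lower. Read from the loci, 11 of the 70 higher loci had a parent other than Gapdh that was called higher, 19 were copies of Gapdh, 26 had a parent within 2-fold and 14 had no paired parent. Of the 59 lower loci, 21 had a parent called lower, 28 a parent within 2-fold and 1 a parent called higher, which was Gapdh.

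Among the family lists with more than 2 loci, copies of glycolytic enzyme genes had the highest median. The list held 39 loci with a median log2 ratio of 1.17, of which 24 were past 2-fold higher and 1 past 2-fold lower. The shares over all rows were 10.7% higher and 10.3% lower. Of the 8 parents 7 were called higher, and of the 16 protein-coding rows of this list 12 were higher and 1 lower. Because 30 of the 39 are copies of Gapdh, they are given apart.

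Gapdh encodes glyceraldehyde-3-phosphate dehydrogenase, the enzyme that oxidises glyceraldehyde 3-phosphate in glycolysis. Its entry held 257 rows, 248 of them processed pseudogenes. All rows of the entry together had 42414 reads in the control and 126904 in the knockdown library, a read ratio of 2.89 (2.86 to 2.93). The gene and its copies shared these reads unequally in the 2 libraries. The Gapdh row had 281 reads in the control and 29055 in the knockdown library, a read ratio of 100.01 (88.9 to 113). The copy Gm13394, at chr2:28933610-28934609 within an intron of Cfap77, had 40784 and 94880 reads, a ratio of 2.25 (2.22 to 2.28). Cfap77 itself had 14 and 8 reads.

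Pseudogenes thus held 99.3% of the entry's reads in the control library (exact interval 99.2 to 99.4) and 77.1% in the knockdown library (76.8 to 77.3). Gm13394 alone held 96.2% and 74.8%. Per length, Gm13394 stood at 2177 FPKM in the control and 5065 in the knockdown library, where the Gapdh row stood at 3.63 and 375 FPKM. The 2 sequences differ at 1 base of 1000, marked in the first pair above, and 88.9% of the windows of 100 bases in Gm13394 stand unchanged in Gapdh transcripts. At that base, the other 29 loci of the entry all carried the same letter as Gapdh, and Gm13394 was the only 1 of 30 that did not. Whether the RNA of CT26 cells carries either letter was not tested.

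The other Gapdh copies had far fewer reads. Among the 30, 26 lay above no change and 19 were at least 2-fold higher, where the share over all rows was 10.7%. Their median log2 ratio was 1.17, with a range from -1.49 to 3.12. The highest, Gm8756, had 2 and 18 reads. Gm5559 had 404 reads in the control and 942 in the knockdown library, a ratio of 2.25 (2.01 to 2.54). Gm7336 had 170 and 429 reads, and Gm12070 155 and 387. Closeness to Gapdh did not order the reads: 7 of the 30 loci differed from the Gapdh transcript by 1 mismatch and no gap, and their reads over both libraries ran from 24 to 135664. Of these 7, Gm14760 had 48 and 86 reads and Gm2606 44 and 102. The copies that were lower in the knockdown library were among the diverged ones in 2 cases, 3000002C10Rik with 94 and 53 reads (ratio 0.545, 0.382 to 0.772, 92.4% identity) and Gm6981 with 19 and 7 reads (94.3% identity). Only 1224 of the 3977 bases of 3000002C10Rik aligned with Gapdh, and whether its reads lay in that part was not tested. The other copies below no change, Gm10293 with 13 reads in each library and Gm16374 with 14 and 11, had 8 and 13 mismatches.

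**Figure D4:**
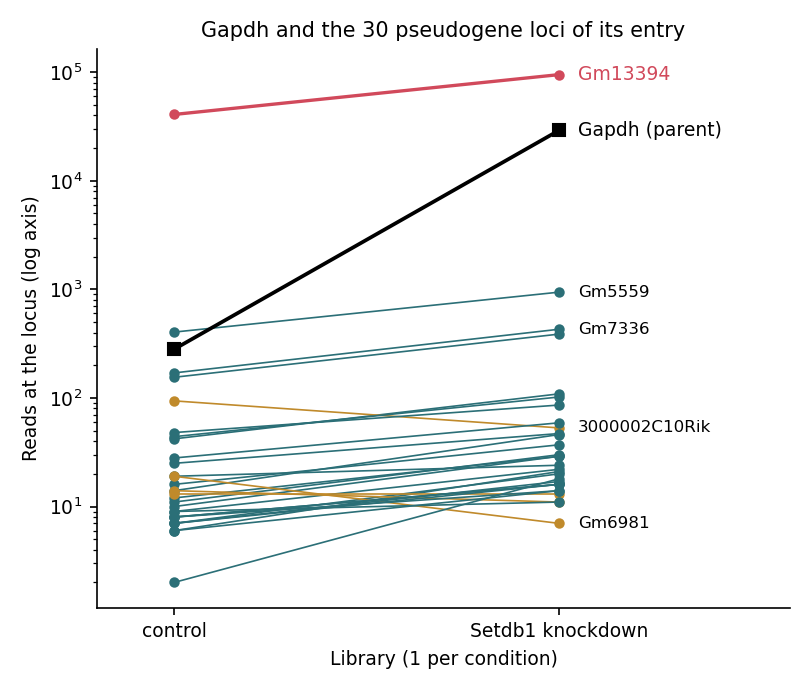
Reads (vertical log axis) in the control and knockdown libraries, 1 per condition (horizontal axis), at the 30 pseudogene loci of the Gapdh entry and at Gapdh itself (black squares). Gm13394 (red) goes from 40784 to 94880 reads while Gapdh goes from 281 to 29055, and the 4 loci in ochre did not have more reads in the knockdown library than in the control library.

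The remaining 9 copies of glycolytic genes lay above no change, as did their parents. Ldha makes lactate dehydrogenase A, which turns pyruvate into lactate, and its copy Ldha-ps2 had 74 reads in the control and 494 in the knockdown library, a ratio of 6.46 (5.05 to 8.36). Ldha itself went from 36268 to 145359 reads, a ratio of 3.88, below the interval of the copy. Ldha-ps2 had 94.5% identity with Ldha and shared 0.835% of its windows of 100 bases with Ldha transcripts. For the phosphoglycerate mutase copy Pgam1-ps2, 152 and 629 reads gave a ratio of 4.003 (3.35 to 4.81). Pgam1 had a ratio of 3.15, also below the interval of its copy.

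The triosephosphate isomerase copy Tpi-rs11 had 77 and 326 reads (ratio 4.10, parent Tpi1 4.29). Pgk1-rs7, identical in sequence to the phosphoglycerate kinase gene Pgk1 over its alignment, had 54 and 157 reads (ratio 2.81, parent 2.51). Gm1840, a copy of the glucose phosphate isomerase gene Gpi1, had 21 and 52 reads, and the pyruvate kinase copy Gm6560 had 624 and 1278 (ratio 1.98, parent Pkm 2.07). Enolase stood apart from these enzymes. Its copies Gm4735, with 20452 and 24198 reads (ratio 1.14), Gm5855, with 263 and 285, and Gm8483, with 17 and 23, lay near the ratio of 1.17 of Eno1.

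Copies of Phgdh were lower together with their parent. Phgdh encodes phosphoglycerate dehydrogenase, which takes the first step from glycolysis into serine synthesis, and went from 37701 to 12344 reads, a ratio of 0.317. All 6 of its loci were at least 2-fold lower, where the share over all rows was 10.3%. Gm7901 had 2847 reads in the control and 1052 in the knockdown library (ratio 0.357), and Gm9347 had 1693 and 671 (0.383). Gm13337 had 231 and 67 reads (0.281) and Gm6756 114 and 34 (0.289). The 2 loci with fewest reads stood lowest, Gm5207 with 27 and 6 reads and Gm8341 with 33 and 4, with counting intervals from 0.0726 to 0.531 and from 0.0302 to 0.33 that hold the parent's ratio. Identity with Phgdh ran from 98.7% for Gm7901 to 93.6% for Gm5207.

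Copies of ribosomal protein genes, the building blocks of the ribosome, made up the largest list, with 160 loci. Their median log2 ratio was -0.26, and 122 of them lay below no change. Past 2-fold there were 7 higher and 8 lower loci, 15 of 160 in all. Their 64 parents had a median of -0.38, and 61 lay below no change, with 0 past 2-fold in either direction. Against the share over all rows, 10.7% higher and 10.3% lower, fewer of the ribosomal loci were past 2-fold in either direction, as among the 100 protein-coding rows of this list, of which 3 were higher and 1 lower. Loci above no change were 38 of the 160, and the log2 ratios of the 160 ran from -8.32 to 2.89.

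The ribosomal copies with most reads lay close to their parents. Gm8730, a copy of the stalk protein gene Rplp0, had 70150 and 47243 reads, a ratio of 0.651 (0.644 to 0.659), and Rplp0 had 70223 and 50058, a ratio of 0.689. Rpl3-ps1 had 20134 and 19239 reads (ratio 0.924) and Rpl3 0.892. Gm6472, a copy of Rps7, had 8323 and 6676 reads (0.776), beside 0.747 for Rps7.

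At some entries nearly all reads stood at copies, as at Gapdh. Rps2-ps10 had 36547 and 35502 reads and Rps2-ps13 22067 and 20957, while Rps2 itself had 2130 and 1889. Pseudogenes held 96.5% of the Rps2 entry's reads in the control and 96.8% in the knockdown library. Gm15772 had 11629 and 11254 reads against 117 and 85 at its parent Rpl26, and the pseudogene share of that entry was 99.01% and 99.3%. Similar shares stood at Rps10 (97.7% and 97.5%) and Rpl29 (99.5% and 99.3%). These shares were within 1 percentage point in both libraries, unlike that of Gapdh. Copies of 1 gene could still differ, as at Rpl17, where Rpl17-ps3 had 3588 and 2745 reads and Rpl17-ps10 2827 and 3392, while Rpl17 had 4761 and 3795.

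Over the 291 entries with 1000 reads or more, pseudogenes held a median of 4.14% of an entry's reads in the control and 4.79% in the knockdown library. More than 50% stood at pseudogenes in both libraries in 22 entries. The share moved by more than 5 percentage points between libraries in 14 entries. Gapdh moved furthest, by -22.2 points, followed by Immp1l (20.9), Lsm7 (16.6), Ndufa12 (-10.7) and Vkorc1l1 (10.1). At Ndufa12, a subunit gene of respiratory complex I, the copy Gm15920 had 1278 and 1105 reads and the gene 198 and 351.

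**Figure D5:**
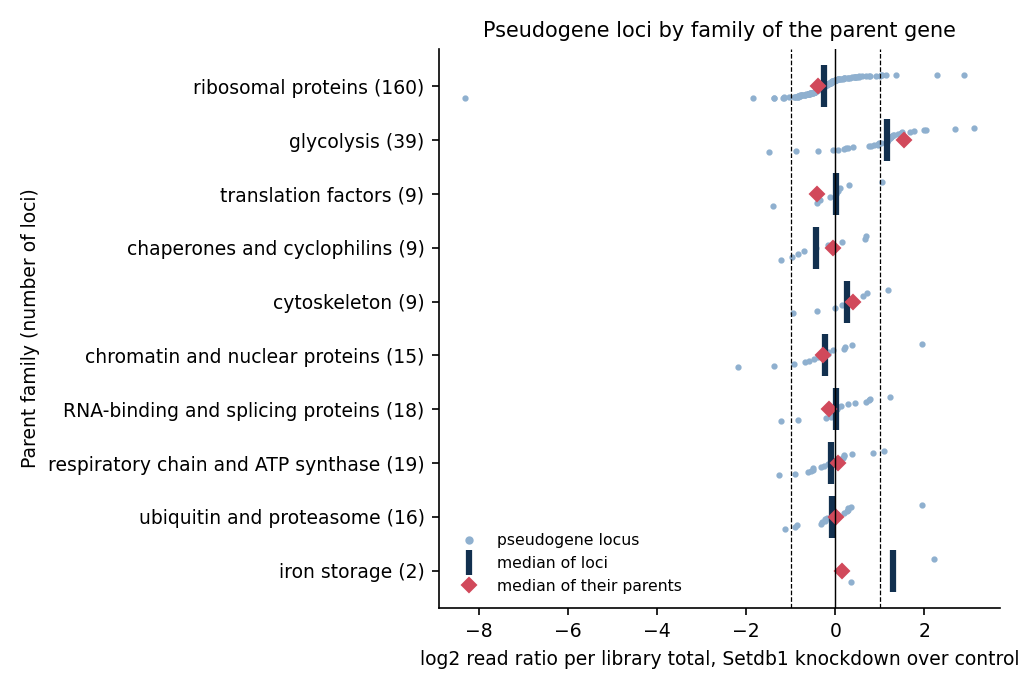
Log2 read ratio of knockdown over control (horizontal axis) for pseudogene loci grouped by the family of their parent gene (vertical axis, number of loci in parentheses). Dots are loci, vertical bars the median of the loci and diamonds the median of their parents, and glycolysis stands at a median of 1.17 while ribosomal proteins stand at -0.26.

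The loci were also counted by their place in the genome. Of the 388 loci outside other genes, 42 (10.8%) were higher and 35 (9.02%) lower past 2-fold, and the median log2 ratio was -0.15. Within introns, 21 of 180 (11.7%) were higher and 21 lower, with a median of -0.09, so both places stood near the background of 10.7% and 10.3% over all rows. Over exons of other genes, 7 of 36 (19.4%) were higher and 3 (8.33%) lower, with a median of 0.29, and reads of the overlapping gene cannot be told from those of the locus. The 43 transcribed processed pseudogenes had 5 higher and 3 lower loci and a median of 0.02, beside -0.12 for the 561 processed ones.

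The smaller lists are too short to set against the background of 10.7% higher and 10.3% lower, and their counts past 2-fold are given as a description. Copies of translation factor genes (9 loci) had a median of 0.03, with 1 higher and 1 lower, while their 7 parents had a median of -0.42. Gm4366, a copy of the elongation factor gene Eef1g, had 13255 and 10842 reads (ratio 0.791), and Gm13050, a copy of Eef2, had 1412 and 1101 (0.754). Gm13456 had 322 and 359 reads, a ratio of 1.08 beside 0.713 for its parent Eef1a1.

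Chaperone and cyclophilin copies (9 loci) had a median of -0.44 with 1 lower. That locus was Hspd1-ps3, with 161 and 72 reads (ratio 0.432), a copy of the mitochondrial chaperonin gene Hspd1, which went from 9584 to 3525 reads. Gm8355, a copy of the chaperone gene Hspa8, had 51 and 85 reads. Gm10123, with 6638 and 8637 reads (ratio 1.26), is not counted in this list, because the deposited entry tied it to Gm5160, which had 0 reads. It matched the cyclophilin gene Ppia at 100% identity. Ppia had 13780 and 10798 reads, so the copy lay above no change and the gene below it.

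Cytoskeletal copies (9 loci) had a median of 0.26 with 1 higher, Gm3788, whose 153 and 361 reads gave a ratio of 2.28, the same as that of its parent, the actin-binding peptide gene Tmsb10. The tubulin gene Tuba1b went from 27658 to 13766 reads, and of its copies Gm14150 had 117 and 63 while Gm3756 had 205 and 212. Copies of chromatin and nuclear protein genes (15 loci) had a median of -0.24, with 1 higher and 2 lower, and the highest and lowest with 100 reads or more were Gm13461, a copy of Ran with 98 and 132 reads, and Gm9118, a copy of Npm1 with 84 and 46.

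RNA-binding and splicing protein copies (18 loci) had a median of 0.03, with 1 higher and 1 lower. Snrpert, a copy of the splicing factor gene Snrpe, had 31 and 75 reads (ratio 2.34), and Gm10110, a copy of the poly(A)-binding protein gene Pabpc4, 265 and 117 (0.427, parent 0.396). Respiratory chain and ATP synthase copies (19 loci) had a median of -0.09, with 1 higher and 1 lower. Among those with 100 reads or more, Gm10231, with 68 and 151 reads and a sequence identical to its parent Atp5g2 (ratio 0.94), stood highest and BC002163, a copy of Ndufs5 with 82 and 45 reads, lowest. Ubiquitin and proteasome copies (16 loci) had a median of -0.08, with 1 higher and 1 lower. Among those with 100 reads or more, Gm8394, a copy of Psma5 with 121 and 160 reads, stood highest and Gm8325, a copy of Ube2v1 with 241 and 134, lowest. The 2 ferritin copies had 73 and 97 reads (Gm15590) and 6 and 29 reads (Ftl2-ps).

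Outside these lists, several loci differed between the libraries by about as much as their parents. Gm9790, a copy of the hypoxia-inducible mitochondrial gene Higd1a, had 29 reads in the control and 174 in the knockdown library, a ratio of 5.80 (3.90 to 8.92), and Higd1a had 454 and 2377. Gm15433 had 50 and 323 reads, and Csprs, the gene its deposited entry tied it to, had 40 and 292. No alignment of Gm15433 with Csprs or another protein-coding transcript was found, but only the same strand was searched. Of its windows of 100 bases, 61.1% also stood in other annotated transcripts of any type. Gm11451 had 37 and 123 reads, beside 106 and 248 at Hacd1, an enzyme gene of very long fatty acid synthesis.

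On the lower side, Tcea1-ps1 had 89 and 23 reads (ratio 0.25, 0.151 to 0.399), and the transcription elongation factor gene Tcea1 had 0.258. Gm4202, a copy of the 14-3-3 protein gene Ywhaz, had 266 and 75 reads (0.273), beside 0.35 for Ywhaz. Rbpj-ps3, a copy of the Notch pathway transcription factor gene Rbpj, had 2588 and 1268 reads (0.474), beside 0.431 for Rbpj, and Gm9816 had 949 and 418 (0.426), beside 0.399 for the COP9 signalosome gene Gps1. Hmgn2-ps1 had 307 and 60 reads (0.189), and Gm9892, a locus without a parent row whose best alignment was with Eif2s2, had 100 and 36 (0.348). The deposited entry tied Hmgn2-ps1 to Gm10282 (0.351), while its best alignment was with Hmgn2 at 100% identity. Hmgn2-ps1 and Gm9892 are not set beside the ratios of their closest coding genes here.

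A few loci departed from their parents. Gm4342, at chr8:123853829-123854195 within an intron of Ccsap, had 929 reads in the control and 0 in the knockdown library. With the 0 set to the floor of 3 reads that is 320.2-fold lower, a figure that depends on the floor. Its parent Rpl35, a protein of the large ribosomal subunit, had 13983 and 10835 reads. Per length Gm4342 stood at 135 FPKM in the control library, and Ccsap, on the other strand, had 170 and 405 reads. The copy matched Rpl35 at 98.1% of bases and shared 12.3% of its windows of 100 bases with Rpl35 transcripts. It was the only 1 of the 604 loci with 0 reads in a library.

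Gm7535, at chr17:17911040-17912816 within an intron of Fpr3, had 159 and 11 reads, a ratio of 0.0669 (0.0327 to 0.123). Its parent Ncaph2, a subunit of condensin II, had 9859 and 13729 reads, and Fpr3 had 0 in both libraries. The copy had 93.3% identity with Ncaph2. Both loci are thus far below parents that lay within 2-fold. BC002163 and Gm8325, given above, also lay more than 2-fold below their parents, the latter beside a parent row with 16 and 28 reads.

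On the other side, Gm7600, at chr8:11683459-11684243 within an intron of 1700016D06Rik, had 85 and 426 reads, a ratio of 4.85 (3.83 to 6.19). Its parent Rps3a1, a protein of the small ribosomal subunit, had 14605 and 11269 reads (ratio 0.746). Of the other copies of Rps3a1, Rps3a3 had 136 and 266 reads (1.89), Gm13408 68 and 71, and Rps3a2 3994 and 4454. The ratios of all 4 stood above the parent's and by different amounts, though that of Gm13408 rests on few reads. Gm5417 had 29 and 85 reads (2.84) and lay in an intron of Pacsin2, which had 2666 and 2515, and its parent Vkorc1l1, a vitamin K epoxide reductase gene, had 626 and 502.

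The Rpl7a copy AC121151.1 had 83 and 177 reads (ratio 2.06, parent 0.625), and Gm8121 had 122 and 324 (2.57), beside 0.83 for Immp1l, a gene of the mitochondrial inner membrane peptidase. Gm14539 had 34 and 104 reads (2.96), beside 1.18 for Usmg5, a gene of an ATP synthase-associated protein, and its 174 bases match Usmg5 without a difference. Gm10146, with a sequence identical to the RNA-processing gene Lsm7, had 114 and 200 reads while Lsm7 had 419 and 327. Copies without a difference from their parent stood both near its ratio, as Pgk1-rs7 did, and away from it, as these did.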

How the data were processed

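RNA sequencing of 1 control and 1 Setdb1 knockdown library of CT26 cells was analysed. The authors deposited FPKM values per gene row with gene length, position and type. The submitters' processing notes name CASAVA, HISAT2, featureCounts 1.5.0-p3 and GRCm38, with no parameters. How reads that match several loci were counted, the use of strand and the read length are not given in the sources used here. Reads were recovered as FPKM times gene length over 1 common step, and 100% of values above 0 came out within 0.01 of a whole number.

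Read ratios used each library's own total (18421604 and 19045830 reads, set against 18731117 in the deposited scaling), with a count of 0 set to 3 reads and 95% Clopper-Pearson intervals (scipy 1.17.1). These cover counting error only. Rows needed at least 20 reads over both libraries. Parents were protein-coding rows sharing the Swiss-Prot entry, the row named by the entry or else the one with most reads. Coordinates matched GENCODE M21 on GRCm38 for 598 of 604 loci, and transcripts were aligned with BLAST+ 2.17.0 and, for the Gapdh entry, Biopython 1.88. On simulated counts for 12546 rows, 200 of 200 rows changed 4-fold were recovered and 112 unchanged rows passed 2-fold. Those counts were drawn with counting error alone, so they leave out variation between libraries and give no error rate for the 2-fold calls.

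Named loci followed a rule: the 10 with most reads, the 8 highest and 8 lowest ratios and the 6 furthest above and below their parents among those with 100 reads or more, the ends of each family list and their parents. Others of the Gapdh, Phgdh, Rps3a1 and Tuba1b entries, the remaining glycolytic copies, and Gm15920, Gm10146, Rpl17-ps3, Rpl17-ps10, Ftl2-ps, Rbpj-ps3 and Gm9816 were chosen after their values were seen. The loci, lists and rule were chosen with earlier results of these data known. For the family lists no set test was run. The alternatives were other scalings, log2 of FPKM plus a pseudocount of 1 or 0.1, other read minima and thresholds, and other choices of parent. Parent by alignment, the common deposited depth and loci outside other genes were added after seeing the data.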

Additional observations from a re-analysis of the deposited data

How the results depend on the processing

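No paired analysis was possible because neither group had a second library, and leaving out a library could not be run either. The counts of loci past 2-fold, 70 higher and 59 lower, depended on the minimum and the threshold: 166 and 148 with at least 1 read and more than 3 in a library, 23 and 16 with at least 100 reads, 112 and 132 at 1.5-fold, 13 and 14 at 4-fold, 19 and 16 with the counting interval past 2-fold, 27 and 20 on log2(FPKM + 1), and 42 and 35 outside other genes. The median log2 ratio of -0.12 stayed below 0, at -0.0678 with median-ratio scaling, -0.0485 on log2(FPKM + 1), -0.0669 on log2(FPKM + 0.1), -0.0529 with that minimum of 1 read, -0.185 with at least 100 reads and -0.0693 at the common deposited depth. Against the parent, at least 100 reads gave a median difference of 0.0732 with 17 loci above and 13 below by 2-fold, in place of 0.05, 42 and 57. On log2(FPKM + 1), 21 lay above, and without the Gapdh entry 27 lay below. With the parent taken by best alignment there were 589 pairs, of which 54 lay above and 55 below. Fewer loci were tested under the read minimum and outside other genes, and FPKM plus a pseudocount shrinks the ratios of low loci. Of 56 alternative values of these results, 25 moved past 1.5 times the count or past the spread set for a median or share, and the other 31 did not. Of 49 named loci, 0 changed sign under the 5 settings run for them. The scaling factors ran only from 0.999 to 1.03 and a pseudocount shrinks a ratio, so these settings could hardly change a sign. Depth limits these results, since only 335 of the 604 loci had 100 reads or more over both libraries.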
